A study of Mus musculus with 2 samples.

Results

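The genes described here are 31 genes of glycolysis and of the response to low oxygen, chosen by name from a fixed list with a minimum of 50 UMIs (unique molecular identifiers, each standing for 1 captured transcript). All 31 passed that minimum, out of 16856 genes that passed it among 32589 in the files. They comprise 16 glycolytic genes (glucose and lactate carriers included), 3 regulators of glycolytic flux, the factor gene Hif1a and 11 other genes of the hypoxia response. Levels are CPM, the field's usual scaling of a gene's UMIs to the total of the same cells, and differences are log2 ratios of BiDT over Ctrl.

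Leukocytes sorted for CD45 from mouse tumours grown from the colon carcinoma line MC38 were profiled by single-cell RNA sequencing at day 19 after inoculation. Ctrl was the control group and BiDT the group treated with an agent that the labels do not define beyond that name; by its title the series concerns a protein in which anti-TIM3 is joined to IFN. Each group was 1 library made from 5 pooled biological replicates, both of batch 1, and the labels give neither strain, age nor what Ctrl received. Differences below are therefore untested and unreplicated, and each 95% interval covers counting error only.

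The 2 libraries held 34310 and 34996 barcodes, of which 30549 Ctrl and 31615 BiDT cells passed the filters, and 713 barcodes occurred in both. Median depth was 4172 UMIs per cell in Ctrl and 2616 in BiDT. Cells were assigned to classes by marker genes, and the macrophage or monocyte class held 20886 Ctrl cells (68.4%) and 15084 BiDT cells (47.7%). Its median sum of macrophage markers was 91.2 and 73.3 per 10000 UMIs, against 5.55 and 6.66 for neutrophil markers and 0 for T, NK and non-immune markers. Despite the sort, 4.81% of Ctrl and 3.89% of BiDT cells met the gate for non-immune (tumour or stromal) cells, and 6.68% and 14.3% met no gate or more than 1. In bulk sums over all cells, fewer cells of a type and less RNA per cell cannot be told apart.

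Glycolysis splits glucose into pyruvate in the cytosol, and with the reduction of pyruvate to lactate it yields ATP without oxygen. When oxygen is short, prolyl hydroxylases no longer mark HIF-1α for destruction, and the factor then switches on most glycolytic genes together with genes for angiogenesis, mitophagy and lipid storage by binding short hypoxia response elements. Macrophages in poorly perfused parts of tumours are known for this programme, and activated T cells and inflammatory macrophages also raise glycolysis with oxygen present.

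In the macrophage or monocyte class, 7 of the 31 genes were at least 1.5 times lower in BiDT and 2 were at least 1.5 times higher. Over all 14895 genes with at least 50 UMIs in this class, 9.85% were that much lower and 18.1% that much higher. The lower genes were Aldoc, Gapdh, Eno1, Adm, Mif, Gpi1 and Pdk1, and the higher ones Pfkfb3 and Hmox1. The 16 glycolytic genes had a median log2 ratio of -0.27, with 4 lower and 0 higher, and the 11 other hypoxia genes a median of -0.15, with 2 lower and 1 higher. All genes tested had a median of 0.08. Scaling by the trimmed mean of M-values (TMM), which assumes that most genes do not differ, moved every log2 ratio of this class by -0.18. Then 11 members were lower and 2 higher, with a median of -0.46 for the glycolytic and -0.33 for the other hypoxia genes. The shares over all genes were counted without TMM scaling only. Counts of members with TMM scaling, here and below, therefore have no such share beside them.

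**Figure D1:**
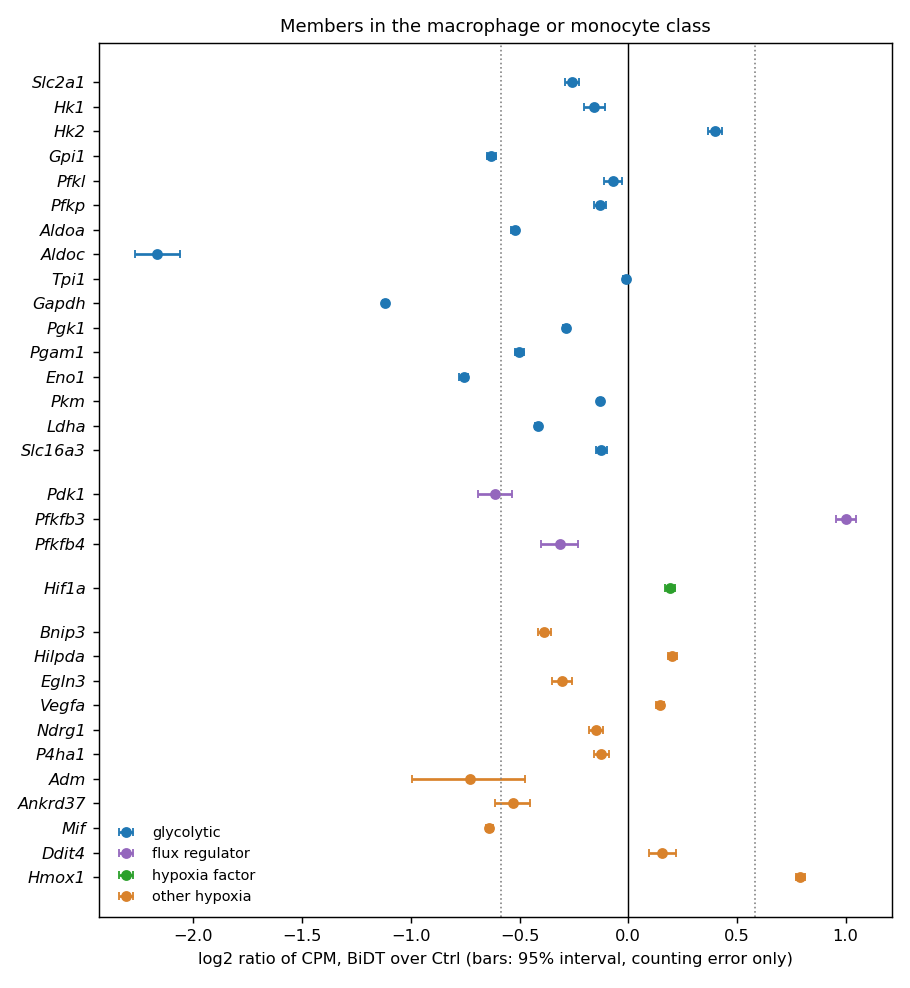
Log2 ratio of CPM (BiDT over Ctrl, x axis) for each of the 31 genes in the macrophage or monocyte class, coloured by group, with 95% intervals for counting error; dotted lines mark 1.5-fold. Aldoc at -2.17 and Gapdh at -1.12 lie farthest left, and Pfkfb3 at 1.00 and Hmox1 at 0.79 farthest right.

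Among the genes of glucose entry and the first steps, Gpi1 was at least 1.5 times lower in this class and the others lay within 1.5-fold. Slc2a1, the glucose carrier GLUT1, stood at 206 CPM in Ctrl and 172 in BiDT (log2 ratio -0.26, interval -0.29 to -0.23). Hk2, the hypoxia-inducible hexokinase that traps glucose as its phosphate, stood at 164 and 216 CPM (0.40, 0.37 to 0.43). Over all cells of the class it was the single glycolytic gene above 0. Within 5 ranges of cell depth, however, Hk2 lay between -0.02 and 0.19. With cells of 2000 to 5000 UMIs alone Hk2 was at 0.04, and Tpi1 (0.06) and Pfkl (0.01) were above 0 too. The constitutive hexokinase Hk1 was at 87.2 and 78.3 CPM. Gpi1, which turns glucose phosphate into fructose phosphate, was 1.55 times lower, at 675 and 436 CPM (-0.63, -0.65 to -0.61). The phosphofructokinase subunits Pfkl (122 and 116 CPM) and Pfkp (272 and 249 CPM), which catalyse the committed step, differed little, with log2 ratios of -0.07 and -0.13.

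Among the glycolytic genes Aldoc, Gapdh and Eno1 held the largest differences, and the ratios were uneven from step to step. Aldoc, the brain-type aldolase, was at 66.4 CPM in Ctrl and 14.8 in BiDT, 4.49 times lower (-2.17, -2.27 to -2.06). Gapdh, the dehydrogenase often used as a reference transcript, was at 2506 and 1155 CPM, 2.17 times lower (-1.12, -1.13 to -1.11). Eno1, the enolase of most tissues, was at 696 and 412 CPM, 1.69 times lower (-0.76, -0.78 to -0.74). By contrast Tpi1, the triosephosphate isomerase that acts between aldolase and Gapdh, was at 807 and 801 CPM (-0.01, -0.03 to 0.005).

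The remaining enzymes and the lactate carrier lay between these. Aldoa, the main aldolase, was at 980 and 682 CPM (-0.52), and Pgam1, the phosphoglycerate mutase, at 710 and 501 CPM (-0.50). Ldha, which makes lactate, was at 1253 and 940 CPM (-0.41), and Pgk1, the phosphoglycerate kinase, at 992 and 813 CPM (-0.29). Pkm, the pyruvate kinase (1628 and 1488 CPM, -0.13), and Slc16a3, the lactate exporter MCT4 (359 and 329 CPM, -0.12), differed least among them. Summed over all 16 genes the level was 11522 CPM in Ctrl and 8403 in BiDT (-0.46), and without Gapdh 9016 and 7249 (-0.31), so that Gapdh alone made up 43.3% of the difference of the sums. Several of these genes, Gapdh, Aldoa, Eno1, Ldha, Pgk1, Pgam1, Tpi1 and Pkm among them, have near-identical processed copies in the mouse genome, and the treatment of reads shared with them in counting is unknown here. The symbol Aldoa was borne by 2 genes, and the one with the most UMIs was used.

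The 3 regulators of flux went different ways. Pfkfb3, the kinase that makes the activator of phosphofructokinase, was at 60.1 CPM in Ctrl and 120 in BiDT, 2.0 times higher (1.00, 0.96 to 1.05). Pfkfb4, its relative with stronger phosphatase activity, was at 33.8 and 27.2 CPM (-0.31, -0.40 to -0.23). Pdk1, which keeps pyruvate out of the mitochondrion by inhibiting pyruvate dehydrogenase, was at 46.1 and 30.1 CPM, 1.53 times lower (-0.61, -0.69 to -0.54), an interval that reaches within 1.5-fold. With cells of 2000 to 5000 UMIs alone Pdk1 was at -0.47, within 1.5-fold.

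Of the 11 other hypoxia genes, Adm and Mif were at least 1.5 times lower, Hmox1 was higher, and 8 lay within 1.5-fold. Vegfa, the angiogenic growth factor, was at 619 and 685 CPM (0.15, 0.13 to 0.16), and Hilpda, the lipid-droplet protein that blocks lipolysis, at 392 and 452 CPM (0.20, 0.18 to 0.22). With TMM scaling Vegfa turned to -0.04 and Hilpda stayed above 0, at 0.02. Bnip3, a mitophagy receptor, was at 271 and 208 CPM (-0.39), and Egln3, the prolyl hydroxylase that HIF itself induces, at 118 and 95.1 CPM (-0.31). Ndrg1 (229 and 207 CPM, -0.15) and the collagen hydroxylase subunit P4ha1 (167 and 153 CPM, -0.12) differed less.

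The remaining members of this group differed more widely. Hmox1, the heme oxygenase that NRF2 and heme also induce, was at 291 CPM in Ctrl and 503 in BiDT, 1.73 times higher (0.79, 0.77 to 0.81). Mif, a macrophage cytokine, was at 1037 and 666 CPM, 1.56 times lower (-0.64, -0.66 to -0.62). Adm, the vasodilator adrenomedullin, was 1.66 times lower on few molecules, 614 UMIs in Ctrl and 155 in BiDT (4.58 and 2.76 CPM, -0.73, -0.99 to -0.47), and Ankrd37 was at 40.7 and 28.2 CPM (-0.53, and -0.72 with TMM scaling, past 1.5-fold). Ddit4, an inhibitor of mTORC1 that stress hormones also induce, was at 48.8 and 54.4 CPM (0.16, and -0.03 with TMM scaling). Hif1a itself, which is controlled mostly at the protein level, was at 366 and 418 CPM (0.19, and 0.01 with TMM scaling).

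Depth and signs of RNA quality moved with these differences. Median depth in the class was 4483.5 UMIs in Ctrl and 2780 in BiDT, and the median share of the nuclear RNA Malat1 was 0.336% and 0.729% of UMIs. The median mitochondrial share was 1.71% and 0.842%. Within Ctrl the summed glycolytic level was 7857 CPM in cells of 1000 to 2000 UMIs and 12542 CPM in cells of 10000 and above, and within BiDT 6645 and 9489 CPM, so the level was higher in deeper cells in both libraries. Inside the 5 depth ranges the glycolytic median lay between -0.30 and -0.12 and the other hypoxia median between -0.37 and -0.14. Gapdh lay between -0.90 and -0.80, Aldoc between -2.28 and -1.46, Eno1 between -0.55 and -0.46, and Hmox1 between 0.69 and 0.97 in all 5 ranges. Pfkfb3 ran from 0.40 in the shallowest to 1.17 in the deepest cells. Gapdh, Aldoc and Hmox1 were past 1.5-fold in every range, and Eno1 in none. Adm, on few UMIs, ran from -1.70 to 0.06 over the 4 ranges in which it was tested. With cells of 2000 to 5000 UMIs alone 3 members were lower in place of 7, since Gpi1 (-0.44), Mif (-0.47), Pdk1 (-0.47) and Eno1 (-0.53) then lay within 1.5-fold. The share over all genes was not counted in those cells. Gpi1 and Pdk1 were past 1.5-fold in the deepest of the 5 ranges alone, and Mif in the deepest 2. How far depth enters the differences was not otherwise tested.

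**Figure D2:**
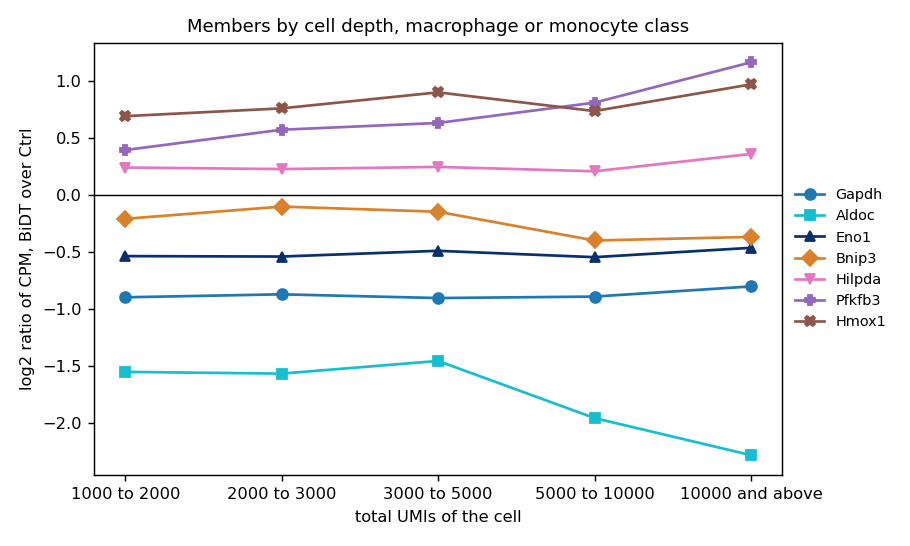
Log2 ratio of CPM (BiDT over Ctrl, y axis) of 7 genes in the macrophage or monocyte class, within 5 ranges of total UMIs per cell (x axis). Gapdh and Aldoc lie below 0 and Hmox1 and Pfkfb3 above 0 in each range, and the Aldoc and Pfkfb3 values are farthest from 0 in the deepest cells.

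Promoters are shown because HIF-1 is known to act through a short recognition core and the members differed unevenly. RefSeq start sites (build GRCm38.p6, not the build of the count files) were found for 29 of the 31 genes, and the 250 bases before each start were searched for ACGTG on both strands, and separately for GCGTG on both strands. Of the 29 genes, 17 (58.6%) held ACGTG before at least 1 start site, against 18.5% of all 27025 genes in the table and 24.5% of the 11214 table genes tested in the macrophage or monocyte class. With either core the counts were 26 of 29 (89.7%), against 41.5% of all genes and 59.1% of the tested ones. Capitals below mark both cores on either strand, and windows are given 5′ to 3′ along the gene. Ldha (chr7:46845554-46845803, plus strand), Bnip3 (chr7:138909507-138909756, minus strand) and Pgk1 (chrX:106186850-106187099, plus strand) are shown for ACGTG, and Gapdh (chr6:125165774-125166023, minus strand), the most abundant of the lower genes, for its absence.
Ldha: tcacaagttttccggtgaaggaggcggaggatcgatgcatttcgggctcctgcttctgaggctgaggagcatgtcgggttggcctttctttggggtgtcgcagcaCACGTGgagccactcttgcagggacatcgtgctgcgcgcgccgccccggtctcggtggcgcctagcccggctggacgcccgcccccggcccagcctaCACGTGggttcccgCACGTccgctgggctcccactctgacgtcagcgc
Bnip3: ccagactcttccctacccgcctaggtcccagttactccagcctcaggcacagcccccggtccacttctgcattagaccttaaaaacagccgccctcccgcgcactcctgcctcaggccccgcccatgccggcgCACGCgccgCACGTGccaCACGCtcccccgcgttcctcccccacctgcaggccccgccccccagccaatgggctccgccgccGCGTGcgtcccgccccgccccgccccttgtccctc
Pgk1: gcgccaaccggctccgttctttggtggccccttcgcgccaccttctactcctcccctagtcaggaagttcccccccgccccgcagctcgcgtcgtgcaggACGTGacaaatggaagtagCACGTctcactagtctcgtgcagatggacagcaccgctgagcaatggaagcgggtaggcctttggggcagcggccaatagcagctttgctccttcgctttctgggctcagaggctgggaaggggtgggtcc
Gapdh: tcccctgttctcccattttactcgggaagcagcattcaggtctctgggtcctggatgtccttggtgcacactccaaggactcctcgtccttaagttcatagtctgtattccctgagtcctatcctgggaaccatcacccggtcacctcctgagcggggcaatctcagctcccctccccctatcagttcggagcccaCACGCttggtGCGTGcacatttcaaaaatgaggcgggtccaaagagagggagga

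Read against the macrophage values above, the 7 genes that were at least 1.5 times lower (Aldoc, Gapdh, Eno1, Adm, Mif, Gpi1 and Pdk1) held ACGTG in 0 of 7 windows, and the other 22 in 17. With the 11 genes that were lower after TMM scaling, which add Aldoa, Pgam1, Ldha and Ankrd37, the counts were 4 of 11 and 13 of 18, so the split depends on the scaling. With GCGTG counted too, 5 of the 7 and 21 of the 22 held a core, where the shares over the tested table genes were 58.7% of those called lower and 59.2% of the others. This split rests on the measured ratios and is a description of 29 genes. Over the 11214 table genes tested in the class the same split was even, with ACGTG in 23.3% of the genes called lower and 24.7% of the others. The median log2 ratio was 0.04 for genes with ACGTG and 0.08 for those without. A match is a run of letters and not a site that was shown to be bound.

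The lower Gapdh level was found in all 11 cell classes, with log2 ratios from -1.12 in the macrophage or monocyte class to -0.46 in gamma delta T cells, and every interval lay below 0. In 10 of the 11 it was at least 1.5 times lower. Aldoc, tested in 6 classes, was at least 1.5 times lower in each, from -2.98 in neutrophils (33.3 and 4.22 CPM) to -0.60 in migratory dendritic cells, where the interval reached 0. Gpi1, Mif, Pgam1, Pgk1 and Pkm were below 0 in all 11 classes, and Eno1, Aldoa, Ldha and Hk1 in 10. With TMM scaling, which moved neutrophils by 0.14 and the other classes by -0.22 to 0.04, the number of glycolytic genes below 0 in neutrophils was 12 in place of 14 of 16, and Pkm there was nearly even (-0.0018). Over the 11 classes, 4.18% to 19.6% of all genes tested were at least 1.5 times lower and 9.98% to 18.9% higher.

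**Figure D3:**
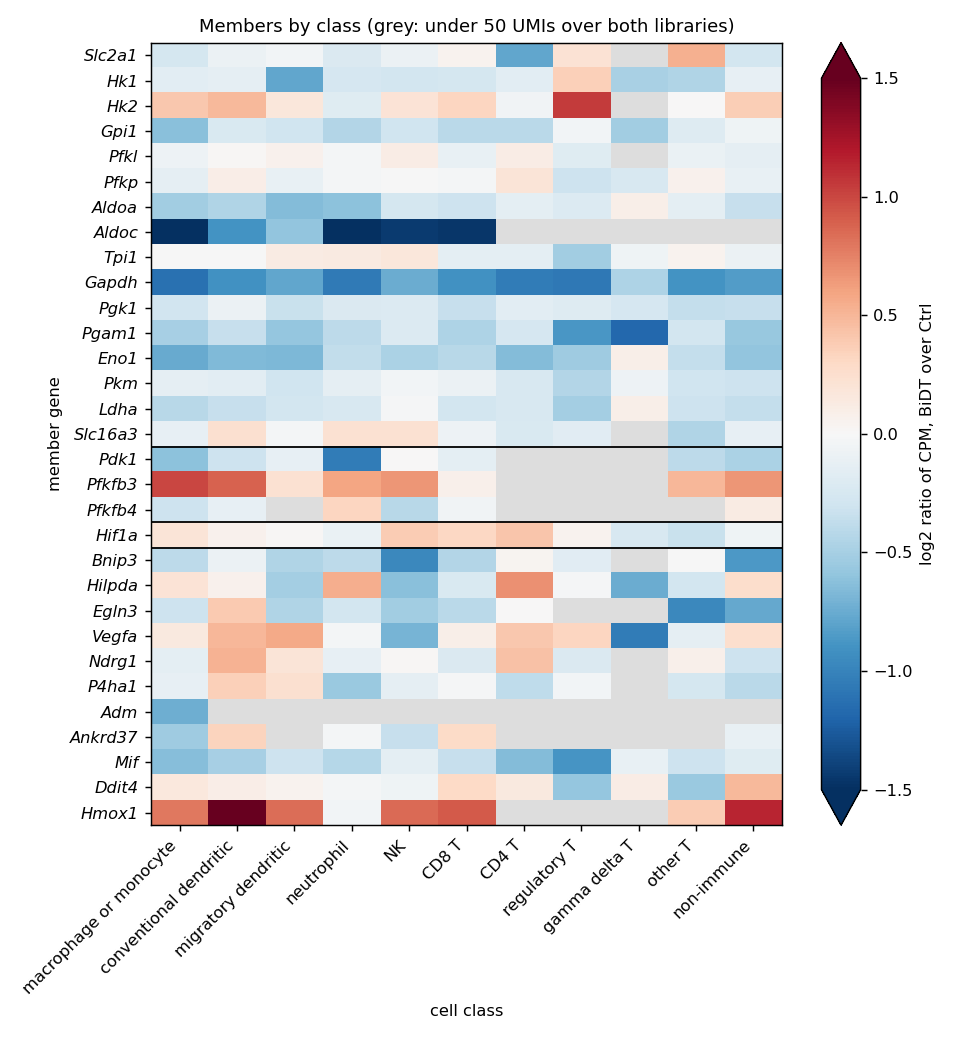
Log2 ratio of CPM (BiDT over Ctrl, colour) for the 31 genes (rows, grouped by black lines) in 11 cell classes (columns); grey cells had fewer than 50 UMIs over both libraries and colours saturate at 1.5. The Gapdh row is blue throughout, from -1.12 to -0.46, and the Pfkfb3 row is red, from 0.07 to 1.00.

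Pfkfb3 was above 0 in all 8 classes in which it was tested and at least 1.5 times higher in 5, from 0.07 in CD8 T cells (44.2 and 46.5 CPM) to 0.89 in conventional dendritic and 1.00 in macrophage or monocyte cells. With TMM scaling it was at least 1.5 times higher in 3 of the 8, with NK cells at 0.55 and non-immune cells at 0.44, and CD8 T cells were at 0.02. In non-immune cells its level (7.59 and 12.0 CPM) was below 10% of that in another class, where free RNA from other cells can reach it. Hmox1 was above 0 in 7 of 8 classes, and its log2 ratio was highest in conventional dendritic cells, at 31.5 CPM in Ctrl and 145 in BiDT (2.21, 1.96 to 2.46). The macrophage level was 291 and 503 CPM, and RNA carried over from macrophages into the dendritic class was not tested. In CD8 T cells (21.8 and 41.4 CPM), NK cells and migratory dendritic cells, Hmox1 stood below 10% of the macrophage level, in the same reach of free RNA. Neutrophils, at 224 and 217 CPM, showed no higher Hmox1 (-0.04, -0.20 to 0.12, and 0.09 with TMM scaling). Their median sum of macrophage markers was 62.9 in Ctrl and 40.6 in BiDT per 10000 UMIs, and its part in this value was not tested.

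CD8 T cells, which the series title names, had a glycolytic median of -0.27 with 2 of 16 genes at least 1.5 times lower and 0 higher, where 4.42% of the 10719 genes tested in the class were lower and 9.98% higher. The 2 genes were Gapdh, at 2078 and 1105 CPM (-0.91, -0.94 to -0.88), and Aldoc, at 32.7 and 11.9 CPM (-1.45, -1.76 to -1.15). Hk2 (0.32) and Slc2a1 (0.06) were above 0, and Hif1a was at 492 and 607 CPM (0.31, 0.25 to 0.36). The class held 1790 Ctrl and 3036 BiDT cells, with a median depth of 3334.5 and 3096.5 UMIs. The median share of Malat1 there was 0.280% and 0.491% of UMIs and that of mitochondrial UMIs 1.80% and 1.09%, and their part in the result was not tested.

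Neutrophils, which rely on glycolysis, had the highest levels of Slc2a1, Slc16a3, Hilpda and Egln3 of all classes in both libraries. Egln3 was at 415 CPM in Ctrl and 343 in BiDT (-0.28), against 118 and 95.1 in macrophages. Hilpda was at 551 and 807 CPM (0.55, 0.46 to 0.64). Of the 30 genes tested in neutrophils, 4 were at least 1.5 times lower and 1 higher, where 19.6% of all 7822 tested genes were lower and 10.4% higher (3 lower and 2 higher members with TMM scaling). That share of lower members lay below the background of the class. The median sum of macrophage markers in neutrophils was 62.9 in Ctrl and 40.6 in BiDT per 10000 UMIs, and their gate set no upper limit on it. Median depth was 2056 and 1907 UMIs, and the Malat1 share 0.618% and 0.784%. The part of these and of RNA carried over from macrophages in the neutrophil values was not tested.

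In NK cells 3 hypoxia targets were at least 1.5 times lower. Bnip3 was at 71.1 and 36.4 CPM (-0.97, -1.16 to -0.77), Vegfa at 244 and 150 CPM (-0.70, -0.80 to -0.60) and Hilpda at 243 and 157 CPM (-0.63, -0.72 to -0.53). Of 30 genes tested there, 5 were at least 1.5 times lower and 2 higher, against 5.18% and 15.6% of the 11060 genes tested. Median depth in NK cells was 4666 UMIs in Ctrl and 3120.5 in BiDT, and the Malat1 share 0.240% and 0.570%. Their median sum of macrophage markers was 8.77 and 7.01 per 10000 UMIs, and macrophages or monocytes made up 68.4% and 47.7% of cells. The part of depth and of RNA carried over from macrophages in the NK values was not tested. Both Bnip3 (249 and 137 CPM, -0.86) and Egln3 (56.0 and 32.9 CPM, -0.77) were also lower in non-immune cells, in which 4 of 29 genes were lower and 2 higher, against 4.18% and 18.9% of 12191 (7 lower and 1 higher with TMM scaling). In these cells 8 of 12 genes of the response to tissue dissociation were at least 1.5 times higher (median 0.78), median depth was 10204.5 UMIs in Ctrl and 5102 in BiDT, and the Malat1 share was 0.105% and 0.374%. Their part in the result was not tested. Whether these classes differ from macrophages beyond the spread between animals could not be tested with 1 library per group.

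In conventional dendritic cells 1 of the 10 other hypoxia genes tested, Hmox1, was at least 1.5 times higher in BiDT and 0 were lower, where 13.4% of all genes tested in the class were higher and 8.83% lower. Their median was 0.35, with 2 of 10 below 0, and with TMM scaling 0.22, with 4 of 10 below 0. Mif, at -0.49, passed 1.5-fold with TMM scaling (-0.62). Above 0 were Vegfa at 208 and 295 CPM (0.50), Ndrg1 at 143 and 205 CPM (0.52) and Egln3 at 47.3 and 62.2 CPM (0.39), none of these 3 past 1.5-fold. The glycolytic median of conventional dendritic cells was -0.15, with 3 of 16 lower. Of the cells in this class, 32.4% in Ctrl and 37.9% in BiDT did not pass a gate made 1.5 times stricter. Its median sum of macrophage markers was 10.8 and 11.3 per 10000 UMIs. Median depth was 3966 and 2437 UMIs, and the Malat1 share 0.341% and 0.808%. The part of these in the result was not tested. In migratory dendritic cells 5 of 16 glycolytic genes were lower, against 9.56% of 6759 genes in that class, and over all members there 5 of 28 were lower, or 9 with TMM scaling. That class held 568 Ctrl and 213 BiDT cells, with a median depth of 4464.5 and 2580 UMIs. Its Malat1 share was 0.364% and 1.14%, and the part of depth and RNA quality in these counts was not tested. In migratory dendritic cells Ndrg1 reached its highest level of all classes, at 404 and 461 CPM. Pfkp was highest in conventional dendritic cells, at 549 and 587 CPM.

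The T cell classes other than CD8 were small. Hif1a was highest in regulatory T cells (1066 and 1110 CPM) and in CD4 T cells (1026 and 1370 CPM, 0.42, 0.26 to 0.58), whose intervals overlapped in Ctrl and not in BiDT. In CD4 T cells Hilpda was at 402 and 649 CPM (0.69, 0.44 to 0.94). Ddit4 was highest in regulatory T cells, at 307 and 205 CPM (-0.58). Counts of lower and higher members were 4 and 1 of 24 in CD4 T cells, where 8.92% and 10.9% of all genes tested were lower and higher. They were 3 and 1 of 23 in regulatory T cells (background 12.4% and 12.1%, and 6 lower with TMM scaling), 3 and 0 of 16 in gamma delta T cells (12% and 11.6%) and 2 and 0 of 27 in the remaining T cells (6.82% and 11.1%). These values rest on 181 CD4 T cells in each library and on 158 and 99 regulatory T cells.

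Within the macrophage or monocyte class, cells were split into 10 subsets by genes that are no members. A cell that met several gates took the last in this order: Ly6c2, Cxcl9, C1q-high, Arg1 Mmp12, non-classical, Retnla Ear2, cycling, osteoclast-like. The subset named Cxcl9 monocytes was gated by Cxcl9 alone after cells of the later gates were taken out. No monocyte marker was required, so the name is a label only. The Arg1 Mmp12 subset, defined by Arg1, Mmp12 and Spp1, held 7901 Ctrl cells (37.8% of the class) and 5248 BiDT cells (34.8%). Leaving out the osteoclast-like subset of 35 and 16 cells, it had the highest level of 22 of the 31 genes in Ctrl and 23 in BiDT among 9 subsets. The share of all genes that were highest in this subset was not counted, so these counts have no background beside them. Hilpda was at 659 and 803 CPM there, against 321 and 413 in the next subset, and Bnip3 at 403 and 330, against 208 and 237. Bnip3, Hilpda and Hk2 were lowest in non-classical monocytes in both libraries, with Bnip3 at 38.2 and 39.4 CPM and Gapdh at 800 and 403 CPM.

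In the Arg1 Mmp12 subset the glycolytic sum was 14240 CPM in Ctrl and 11253 in BiDT (-0.34), and without Gapdh 11103 and 9620 (-0.21). The sum of its 11 other hypoxia genes was 4458 and 4445 CPM (-0.0043, -0.015 to 0.0067). Gapdh was at 3137 and 1633 CPM (-0.94), Eno1 at 872 and 561 (-0.64) and Aldoc at 82.7 and 24.3 (-1.77), whereas Tpi1 was at 969 and 1133 (0.23) and Vegfa at 771 and 922 (0.26). Over all genes tested in this subset 7.52% were at least 1.5 times lower and 16.2% higher. Of the 31 members 4 were lower (Aldoc, Gapdh, Eno1 and Adm) and 1 higher (Pfkfb3), and the medians of the 2 groups lay close, at -0.27 for the glycolytic and -0.19 for the other hypoxia genes. The even sum held abundant members on both sides, with Mif at 1309 and 959 CPM against Hmox1 at 467 and 675, Hilpda at 659 and 803 and Vegfa at 771 and 922.

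**Figure D4:**
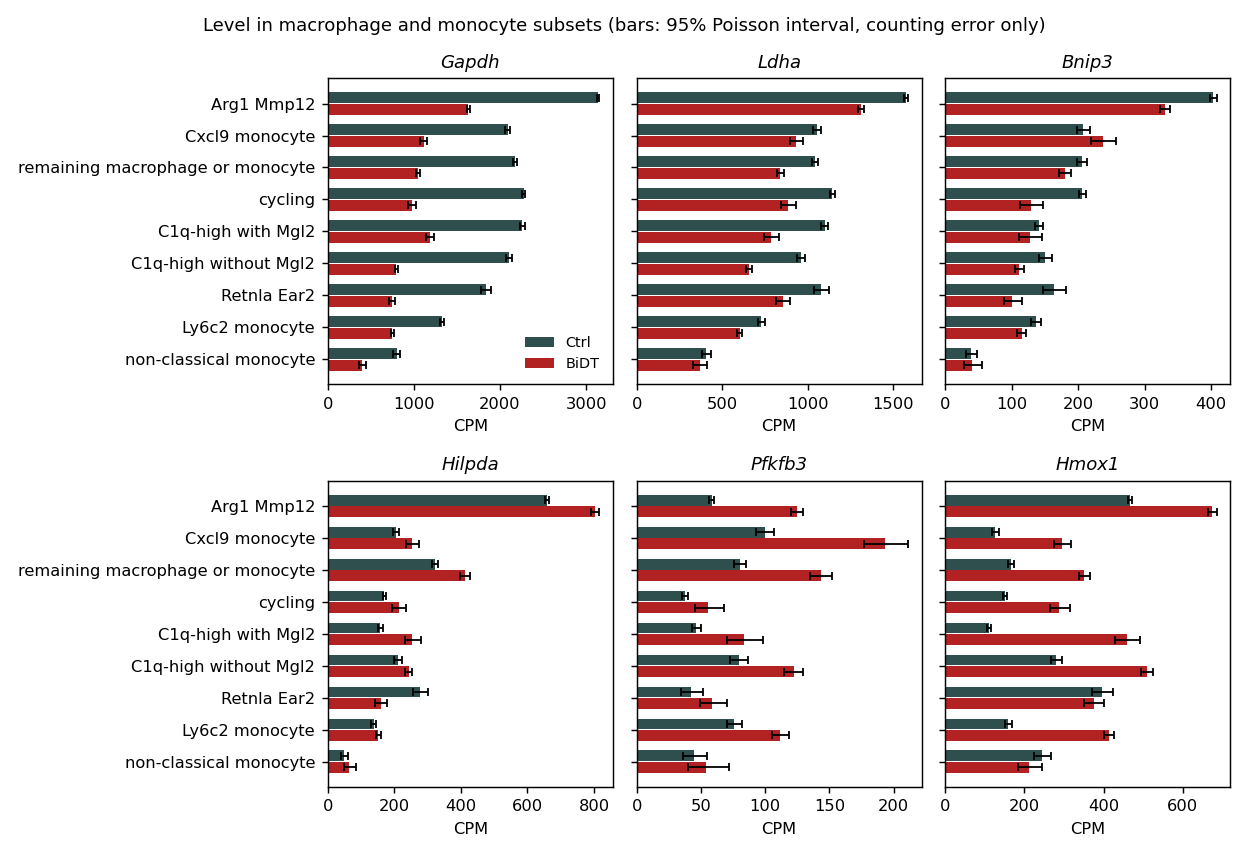
CPM (x axes, from 0) of Gapdh, Ldha, Bnip3, Hilpda, Pfkfb3 and Hmox1 in 9 macrophage and monocyte subsets (rows) in Ctrl (dark) and BiDT (red), with 95% Poisson intervals. Gapdh was lower in BiDT in each subset, Bnip3 and Hilpda peak in the Arg1 Mmp12 subset, and Pfkfb3 peaks in Cxcl9 monocytes.

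Gapdh was at least 1.5 times lower in all 10 subsets (-1.73 in the osteoclast-like to -0.83 in Ly6c2 monocytes), Aldoc in all 9 in which it was tested, and Eno1 in 7 of 10. Hk2 and Pfkfb3 were above 0 in all 9 subsets tested. Pfkfb3, Hk2, Pfkp and Hif1a reached their highest levels in Cxcl9 monocytes in both libraries (for Hk2 in BiDT with intervals that overlapped the next subset), in which Pfkfb3 was at 100.0 CPM in Ctrl and 194 in BiDT. Hmox1 was at least 1.5 times higher in 7 of 10 subsets, from 110 to 460 CPM in C1q-high cells with Mgl2 (2.07), and not in the Arg1 Mmp12 subset (467 and 675 CPM, 0.53), the Retnla Ear2 subset (396 and 375 CPM) or non-classical monocytes (245 and 213 CPM). With BiDT cells weighted to the subset make-up of Ctrl, the log2 ratio of the class was -1.0 in place of -1.12 for Gapdh and 0.76 in place of 0.79 for Hmox1.

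The subsets also differed in how many members stood apart. In the Retnla Ear2 subset 13 of 30 tested members were at least 1.5 times lower and 0 higher, where 9.11% of all genes tested were lower and 11.6% higher, on 306 Ctrl and 445 BiDT cells. There 6 of 10 other hypoxia genes were lower, among them Hilpda (278 and 159 CPM, -0.81), Vegfa (316 and 202 CPM, -0.64), Egln3 (56.7 and 28.5 CPM, -1.0) and Ndrg1 (128 and 70.9 CPM, -0.85), and so was Slc2a1 (143 and 73.7 CPM, -0.95). In cycling cells 12 of 31 were lower and 1 higher (background 12% and 18.3%), with Pfkfb4 at 32.9 and 12.9 CPM (-1.35). In C1q-high cells without Mgl2 10 of 30 were lower and 2 higher (10.9% and 15.4%), and in those with Mgl2 5 and 3 of 30 (15.1% and 16.7%). Median depth in Ctrl and BiDT was 5422.5 and 3345 UMIs in the Retnla Ear2 subset and 8854.5 and 4611 in cycling cells. In C1q-high cells it was 3480 and 2602.5 without Mgl2 and 7193.5 and 4650 with Mgl2.

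The subsets named as monocytes held fewer such genes. In Cxcl9 monocytes 2 of 30 members were lower and 2 higher (background 10.1% and 8.52%), and the median of all members was 0.05. In Ly6c2 monocytes 3 of 30 were lower and 1 higher (7.99% and 11.4%), and in non-classical monocytes 2 of 27 were lower and 0 higher (7.76% and 9.02%). Median depth in Ctrl and BiDT was 3697 and 2559 UMIs in Cxcl9, 3990 and 3343 in Ly6c2 and 3740 and 3303.5 in non-classical monocytes. In the Arg1 Mmp12 subset it was 5215 and 2939. The part of depth and RNA quality in the subset counts was not tested. In the remaining cells of the class 3 of 30 were lower and 2 higher (7.46% and 12.3%), and in the small osteoclast-like subset 4 of 18 lower and 2 higher (21.6% and 20.6%). The median of the other hypoxia genes was -0.67 in the Retnla Ear2 subset and -0.19 in the Arg1 Mmp12 subset, and with 1 library per group that contrast was not tested.

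Cell by cell, glycolytic and hypoxia transcripts went together in both libraries. Each cell of the class was thinned to 1000 UMIs, and cells were ordered by their UMIs of 7 hypoxia targets (Bnip3, Hilpda, Egln3, Vegfa, Ndrg1, P4ha1 and Ankrd37). In Ctrl the mean of the 16 glycolytic genes was 8.0 UMIs per 1000 in cells with 0 target UMIs and 13.8 in cells with 4 or more, and in BiDT 5.56 and 10.8. The share of cells with 4 or more was 18.4% in Ctrl and 18.1% in BiDT, and with 0 it was 29.5% and 31.9%. The distribution of the summed UMIs of these 7 genes was thus nearly even between the libraries, and the glycolytic mean was lower in BiDT at each level of it. Mif, Adm, Hmox1 and Ddit4 were not in that sum. The sum held genes on both sides, with class log2 ratios of 0.20 for Hilpda and 0.15 for Vegfa. Bnip3 (-0.39), Egln3 (-0.31), Ankrd37 (-0.53), Ndrg1 (-0.15) and P4ha1 (-0.12) were below 0. Across cells, Pearson's r between the 2 sums was 0.35 in Ctrl (Spearman's rho 0.35) and 0.36 in BiDT (0.40), as a description only, since cells share a library and both sums come from the same 1000 UMIs.

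**Figure D5:**
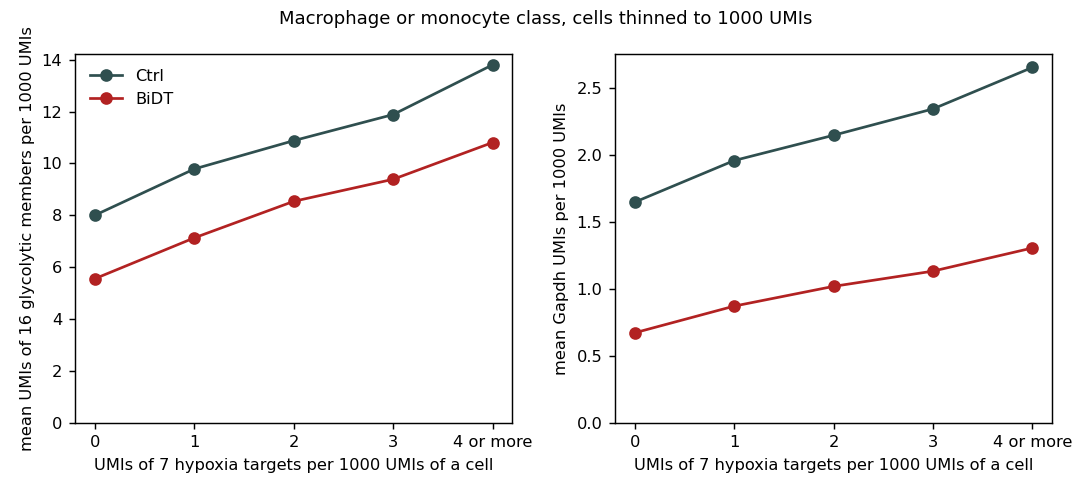
Mean UMIs per 1000 of the 16 glycolytic genes (left) and of Gapdh alone (right) in macrophage or monocyte cells with 0, 1, 2, 3 and 4 or more UMIs of 7 hypoxia targets per 1000 (x axis), in Ctrl and BiDT. Both lines climb with the targets, from 8.0 to 13.8 in Ctrl and from 5.56 to 10.8 in BiDT on the left, with BiDT below Ctrl in each bin.

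The same bins show where Gapdh stood. Its mean was 1.65 UMIs per 1000 at 0 target UMIs and 2.65 at 4 or more in Ctrl, and 0.672 and 1.30 in BiDT. A BiDT cell with 4 or more target UMIs therefore held on average less Gapdh than a Ctrl cell with 0. Before thinning, median depth in these bins was 2760.5 UMIs in BiDT and 4530.5 in Ctrl. The part of depth in this contrast was not tested. Without Gapdh the other 15 glycolytic genes summed to 6.36 and 11.1 UMIs per 1000 in Ctrl and to 4.88 and 9.50 in BiDT. The share of the Arg1 Mmp12 subset climbed over the same bins from 19.7% to 62.0% in Ctrl and from 16.5% to 57.2% in BiDT.

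Neighbouring pathways were read from fixed lists in the macrophage or monocyte class, against the background of 9.85% lower and 18.1% higher. Of 20 other glycolysis genes tested, 3 were lower (Ldhb at -1.37, the mitochondrial pyruvate carrier subunit Mpc1 at -0.71 and Pdk2 at -0.61) and 3 higher (the glucose carrier gene Slc2a3 at 0.75, which is within reach of free RNA, the myeloid hexokinase Hk3 at 0.70 and Eno2 at 0.67). With TMM scaling 5 of these 20 were lower and 0 higher. Of 7 pentose phosphate genes 2 were lower, Tkt, the transketolase, from 489 to 269 CPM (-0.86) and Pgls at -0.61. Of 28 other hypoxia targets 2 were lower (Fam162a at -0.94 and Ndufa4l2 at -0.78) and 1 higher (Nampt, the rate-limiting enzyme of NAD salvage, at 326 and 548 CPM, 0.75), with a median of -0.15. With TMM scaling 5 of the 28 were lower and 0 higher, with a median of -0.33. None of the 6 oxygen-sensing genes tested differed by 1.5-fold (median 0.17, and -0.01 with TMM scaling).

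Nuclear genes of mitochondrial respiration were read beside the median mitochondrial share of UMIs in the class, 1.71% in Ctrl and 0.842% in BiDT. Of 22 nuclear genes of the respiratory chain and citrate cycle, 8 were at least 1.5 times lower and 0 higher in this class (median -0.50), the lowest being Idh3a (-0.97), Atp5b (-0.91) and Uqcrc1 (-0.80), and with TMM scaling 16 were lower. All 22 were at least 1.5 times lower in neutrophils without TMM scaling (median -1.15, and -0.65 for the gene nearest 0). With TMM scaling, which moved neutrophils by 0.14, that gene lay within 1.5-fold, and the number lower was not counted. In CD8 T cells (median -0.19) and in NK cells (median -0.11) 0 of 22 were lower. Over all genes tested 19.6% were that much lower in neutrophils, 4.42% in CD8 T cells and 5.18% in NK cells. A list of 15 NRF2 pathway genes without Hmox1 held targets together with the NRF2 gene Nfe2l2 and its regulators Keap1 and Bach1. Of these 2 were higher, Keap1 (0.81), an inhibitor of NRF2, and Sqstm1 (0.74). The median was 0.24 (0.06 with TMM scaling, when Keap1 alone was higher). Of 12 genes of the response to tissue dissociation, 2 were lower, Hspa1a (-0.70) and Hspa1b (-0.63), and 1 higher, Atf3 (0.59), with a median of 0.10 (-0.09 with TMM scaling, when the same number were lower and 0 higher). All 44 type I interferon genes tested were higher (median 2.54). The part of these lists in the members' differences was not tested.

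Over all filtered cells both the levels within classes and the make-up of the libraries enter the values. There 12 of the 31 members were at least 1.5 times lower and 1 higher, against 6.7% and 24.5% of 16856 genes (18 lower and 0 higher with TMM scaling), and the glycolytic median was -0.45. Vegfa was at 517 CPM in Ctrl and 450 in BiDT over all cells (-0.20), although it was at 619 and 685 in macrophage or monocyte cells. With BiDT classes weighted to the make-up of Ctrl gated cells, Vegfa stood at 524 and 582 CPM (0.15) and the other hypoxia genes summed to 2912 and 2744 CPM (-0.09, and -0.30 unweighted). The glycolytic sum remained lower after that weighting, at 10562 and 7794 CPM (-0.44, and -0.56 unweighted).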

How the data were processed

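The deposited files hold raw UMI counts per gene and cell, which the authors made with Cell Ranger 7.1.0 on GRCm39, per the submitters' processing notes, with an annotation release not given in the sources used here. Kept cells had 300 genes or more, 500 UMIs or more and a mitochondrial share up to 10%. Cells with a Scrublet score of 0.15 or more were removed (2058 in Ctrl and 2808 in BiDT; its automatic thresholds called 2 and 0, and neighbours were searched exactly). Classes and subsets were gated by summed marker UMIs per 10000, with thresholds chosen after the marker distributions were seen. UMIs were summed per class and library and divided by the total to give CPM. Log2 ratios carry exact conditional binomial (Clopper-Pearson) and CPM exact Poisson 95% intervals, which cover counting error only. With 1 library per group no test was made, and a gene was called lower or higher at 1.5-fold or more with at least 50 UMIs over both libraries. The rule was run on simulated counts of the macrophage or monocyte class that held counting error only. That run cannot show how the rule behaves with spread between animals, libraries or cell depths. Free RNA was taken to reach a class whose level was under 10% of that in another class in both libraries. Every member is named; from the other lists, at most the 3 highest and 3 lowest called genes. The members and lists were chosen with earlier results of these data known. Alternatives were TMM scaling, other totals, thinning, doublets, mitochondrial and Malat1 limits, gates, clusters and, chosen after seeing the data, cells of 2000 to 5000 UMIs. Software was Python 3.11.15 with scanpy 1.11.5, scikit-learn 1.9.0, scipy 1.17.1, matplotlib 3.10.9, pandas 2.3.3 and numpy 2.4.6.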

Additional observations from a re-analysis of the deposited data

How the results depend on the processing

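In macrophage or monocyte cells, 7 members were lower as reported and 11 with TMM scaling. With cells of 2000 to 5000 UMIs alone, a setting chosen after seeing the data, 3 were lower. The share of all genes past 1.5-fold was not counted under these settings, so the 11 and the 3 have no background. In 11 of 11 alternatives 2 members were higher. The glycolytic median of -0.27 was -0.46 with TMM scaling, -0.33 with totals without mitochondrial, ribosomal and interferon genes, -0.31 with mitochondrial UMIs up to 5% and -0.18 with cells of 2000 to 5000 UMIs. The other hypoxia median of -0.15 was -0.33 with TMM scaling, -0.21 with those totals, -0.18 after thinning to 1000 UMIs and -0.19 with Malat1 at 1% or less. Over all filtered cells the glycolytic median of -0.45 was -0.67 with TMM scaling, -0.38 with Malat1 at 1% or less and -0.29 with cells of 2000 to 5000 UMIs. The CD8 T median stayed between -0.35 and -0.22 in 11 alternatives. The cause of these shifts was not tested. No paired analysis was possible because each group was 1 library of pooled animals, so the spread between animals is unknown. Adm, at 614 and 155 UMIs, is limited by depth.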
